A study of Mus musculus with 8 samples.

Results

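The genes described here are 8 annexins (Anxa1, Anxa2, Anxa3, Anxa4, Anxa5, Anxa6, Anxa7 and Anxa11) and the S100 genes S100a10 and S100a11, whose proteins bind annexins. They were taken by name from a table of 55487 genes, and all 10 were found, each with at least 10 reads in every library. The members were selected on gene family, with earlier results of these data known, and Anxa2 also on its measured level in a contrast with animals that were not analysed here, so its level is given as a description. The samples were skeletal muscle from 8 male C57BL/6J mice of 10 weeks, whose hindlimbs were held in casts for 8 days while they received K14Q MOTS-c intraperitoneally at 15 mg/kg/day, split over 2 injections a day. MOTS-c is a small peptide encoded in the mitochondrial 12S ribosomal RNA gene, and K14Q is a variant of it in which the lysine at position 14 is replaced by glutamine. Poly-adenylated RNA was sequenced from each animal. All 8 mice had the same cast and the same peptide, so no effect of either could be measured, and the data give the level of each gene and its spread between treated animals.

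Annexins are proteins that bind phospholipid membranes when calcium rises. S100A10 holds a pair of annexin A2 molecules together at their N-termini, and S100A11 binds annexin A1 in a similar way. In muscle fibres several annexins gather at tears in the sarcolemma together with dysferlin and take part in closing them. They are also made by the fibroblasts, endothelial cells and macrophages that lie between the fibres.

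The sample labels give the tissue as vastus lateralis, whereas the study design names gastrocnemius. Muscle identity was clear in either case, since all 9 skeletal muscle markers passed 10 reads in every library and Myh4, the myosin of the fastest fibres, reached 14572 TPM on average against 42.7 TPM for Myh7, the slow myosin. Neutrophil genes had few reads, with none of 6 reaching 10 reads in every library. The highest was Csf3r with 1 to 33 reads, followed by Retnlg with 0 to 16. Libraries held 23985356 to 33012497 counted reads, and the 10 most abundant genes took 18.8% to 26.2% of them. In bulk tissue, fewer cells of a type and less RNA per cell cannot be told apart.

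Upstream sequences were found in RefSeq for 7 of the 10 members. The 250 bases before the RefSeq start site (GRCm38.p6) are printed for Anxa2, for Anxa1 and Anxa5, whose levels followed it most closely across the mice, and for S100a11, a partner of both Anxa1 and Anxa2. They run 5′ to 3′ on the strand of the gene, at chr9:69453433-69453682 (plus strand) for Anxa2, chr19:20390672-20390921 (minus strand) for Anxa1, chr3:36475888-36476137 (minus strand) for Anxa5 and chr3:93520246-93520495 (plus strand) for S100a11. Capitals mark TATAAA, the core of the TATA box, and TGANTCA, the site of the AP-1 factors.
Anxa2: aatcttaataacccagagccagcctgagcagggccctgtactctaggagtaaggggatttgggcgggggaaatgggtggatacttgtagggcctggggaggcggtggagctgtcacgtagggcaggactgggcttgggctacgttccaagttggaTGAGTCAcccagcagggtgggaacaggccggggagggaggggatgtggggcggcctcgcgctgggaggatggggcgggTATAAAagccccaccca
Anxa1: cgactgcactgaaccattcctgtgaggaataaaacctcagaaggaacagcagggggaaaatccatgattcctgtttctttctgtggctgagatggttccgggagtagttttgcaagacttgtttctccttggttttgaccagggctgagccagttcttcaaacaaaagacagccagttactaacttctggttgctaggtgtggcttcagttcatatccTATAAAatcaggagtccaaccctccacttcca
Anxa5: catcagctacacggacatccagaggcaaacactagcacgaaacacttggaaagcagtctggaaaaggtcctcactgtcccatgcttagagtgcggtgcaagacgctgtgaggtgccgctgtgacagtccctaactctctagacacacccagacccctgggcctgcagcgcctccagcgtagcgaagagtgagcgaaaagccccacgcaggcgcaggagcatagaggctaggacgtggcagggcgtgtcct
S100a11: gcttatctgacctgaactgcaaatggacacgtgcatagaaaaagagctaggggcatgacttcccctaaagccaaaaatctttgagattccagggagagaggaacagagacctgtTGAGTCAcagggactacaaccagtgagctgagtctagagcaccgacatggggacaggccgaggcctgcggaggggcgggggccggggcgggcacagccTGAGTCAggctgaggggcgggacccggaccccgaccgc
GENCODE M21 places the outermost start of each of these genes inside its window or, for Anxa1, beyond it, so part of each window, and all of the one for Anxa1, lies within the gene in that annotation.

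Anxa2 was the member with both motifs, with TATAAA at position -17 and TGAGTCA at position -95, where each position is that of the first base counted from the start site. Anxa1 had TATAAA at -32, and S100a11 had TGAGTCA at -136 and at -38. Searched on both strands, TATAAA occurred in 2 of the 7 members and in 12.4% of the 32851 windows of the same length in the RefSeq table, and TGANTCA in 2 of the 7 and in 6.75% of all windows. The GC box, GGGCGG, occurred in 4 of the 7 members (Anxa2, Anxa7, Anxa11 and S100a11) and in 32.7% of all windows. The CCAAT box was found in 0 of the 7 members and in 33.8% of all windows. Anxa5 and Anxa4 carried none of the 4 motifs in these windows. These are matches of letters, not measured binding sites.

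Anxa6, Anxa11 and Anxa7 made up most of the annexin RNA. On the TPM scale, which divides reads by transcript length and by the total of each library, Anxa6 had the highest mean at 104 ± 24.3 (SD, n = 8) when the length was that of all exons joined. Anxa11 followed at 74.96 ± 16.2 TPM and Anxa7 at 39.8 ± 4.70 TPM. Together they held 81.6% ± 1.30 of the TPM of the 12 annexin genes, and this share lay between 79.4% and 83.7% in each of the 8 mice. Annexin A6 is the annexin with a duplicated core and forms part of the repair cap in muscle, annexin A7 promotes membrane fusion, and annexin A11 is known for tethering RNA granules to lysosomes.

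The S100 partners stood in the middle of the order. S100a11 reached 26.1 ± 5.21 TPM and S100a10 15.2 ± 2.61 TPM, with Anxa5, a phosphatidylserine-binding annexin, between them at 16.5 ± 2.46 TPM. The lower end held Anxa4 at 10.3 ± 2.51, Anxa1 at 8.27 ± 2.09, Anxa2 at 7.55 ± 1.96 and Anxa3 at 4.73 ± 1.04 TPM. Of the 9 neighbouring pairs in this order, 3 differed by less than their spread between mice. These were Anxa5 and S100a10 (log2 difference of TPM 0.12 ± 0.13, same order in 6 of 8 mice), Anxa4 and Anxa1 (0.32 ± 0.37, 5 of 8) and Anxa1 and Anxa2 (0.14 ± 0.19, 5 of 8). The levels depended on the length used. With the longest transcript in place of all exons joined, Anxa3 came to 9.78 TPM, Anxa7 to 74.5, S100a10 to 24.4, Anxa4 to 16.5 and Anxa1 to 13.02 TPM. On that scale 42 of the 45 pairs of members kept their order of means, but 4 neighbouring pairs lay within their spread. Anxa6 then exceeded Anxa11 by only 0.11 ± 0.19 (log2 difference of TPM) and in 5 of 8 mice, and S100a10 exceeded S100a11 by 0.059 ± 0.27 and in 4 of 8 mice.

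**Figure D1:**
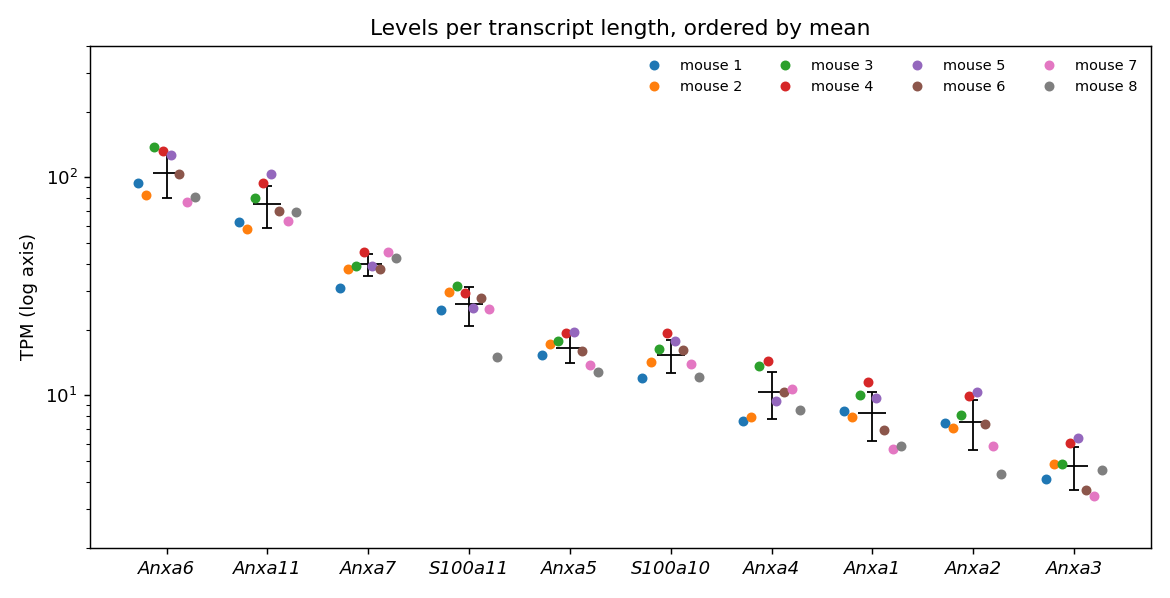
Levels of the 10 members in TPM (log axis), ordered by their mean. Each point is 1 of the 8 mice, and the bar with its whiskers is the mean ± SD. Anxa6 and Anxa11 lie above all other members, the lowest mouse of Anxa7 lies below the highest of S100a11, and Anxa4, Anxa1 and Anxa2 overlap.

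The RNA of each S100 partner exceeded that of the annexin it binds. Anxa2 lay below S100a10 in all 8 mice, by 1.04 ± 0.25 on the log2 scale of TPM, a 2.06-fold excess of the partner. Anxa1 lay below S100a11 in all 8 mice, a 3.18-fold excess, and Anxa2 lay below S100a11 by 3.49-fold. With longest-transcript lengths the log2 differences became -1.15, -0.87 and -1.09, so the direction held while the size for S100a11 depended on the length chosen for the annexins. S100a11 and S100a10 are neighbours on chromosome 3, 28792 bases apart, in the S100 gene cluster.

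Levels across mice are given from here on as normalized read counts, that is, reads divided by the size factor of the library. Anxa2, which with S100A10 forms a surface receptor for plasminogen and its activator, had the widest spread of the members. It ran from 282 in mouse 8 through a median of 453 to 622 in mouse 5, a 2.20-fold range, with a coefficient of variation of 21.1%, of which counting error alone would give 4.73%. The other 6 mice lay close together between 415 and 498. S100a11, which also takes part in membrane repair, had a similar 2.03-fold range, from 134 in mouse 8 through a median of 224 to 271 in mouse 2. Mouse 8 lay apart at the low end, since the other 7 mice held at least 201.

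S100a10 was the steadiest member. It ran from 257 in mouse 8 through 309 to 347 in mouse 5, with a coefficient of variation of 10.6% against 5.84% from counting error. Its protein is the S100 family member that has lost calcium binding. Anxa5 was nearly as steady, from 395 in mouse 8 through 464 to 560.3 in mouse 5 (11.5%). Anxa1, the glucocorticoid-induced annexin that acts on formyl peptide receptors to restrain inflammation, ran from 297 in mouse 8 through 409 to 458 in mouse 5. Its values fell into 5 mice between 401 and 458 and 3 mice, 6 to 8, between 297 and 318.

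Anxa6 ran from 4148 in mouse 8 through 4846 to 5972 in mouse 5. Anxa11 ran from 4302 in mouse 2 through 4798 to 6876 in mouse 5, and mouse 5 stood clear of the others, which reached 5199.5 at most. Anxa3 ran from 210.4 in mouse 6 through 279 to 373 in mouse 5. Anxa7 and Anxa4 were both highest in mouse 7 (r = 0.23 between them, and -0.40 without that mouse), Anxa7 with 5194 over a median of 3706 and Anxa4 with 953 over a median of 731. Anxa7 was lowest in mouse 3 at 3242 and Anxa4 in mouse 1 at 637.

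**Figure D2:**
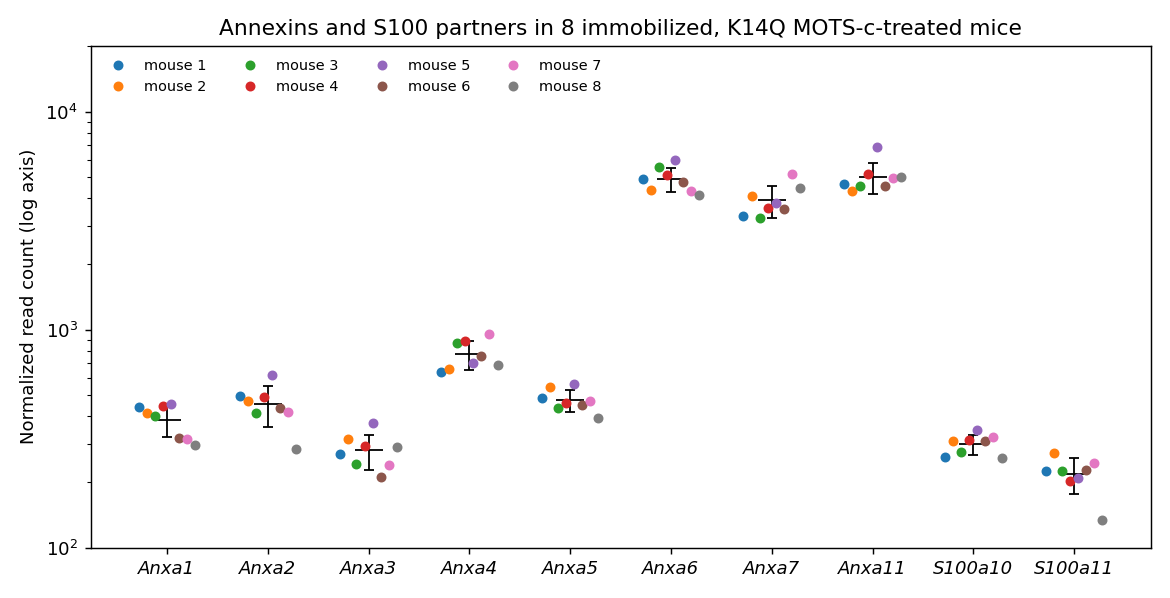
Normalized read counts (log axis) of the 10 members in each of the 8 mice. Points are single mice in the same colour order for every gene, and bars with whiskers are the mean ± SD. Mouse 5 is the highest for 7 members and mouse 8 the lowest for 6.

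Mouse 5 was the highest animal for 7 of the 10 members (Anxa1, Anxa2, Anxa3, Anxa5, Anxa6, Anxa11 and S100a10), while it was the highest for 15.9% of the 15135 genes with at least 10 reads in every library. Mouse 8 was the lowest for 6 members (Anxa1, Anxa2, Anxa5, Anxa6, S100a10 and S100a11) and for 20.7% of all genes. The members had a median coefficient of variation of 16.5% against 15.6% over the 15135 genes and 12.6% over the 8168 genes whose mean lay within the range of the members, and 4 of the 10 lay below the median of all genes. Blood genes had a similar order at its ends. The summed count of 5 of them (4 globin genes and Alas2, an enzyme of haem synthesis in red cells) was highest in mouse 5 at 28320 and lowest in mouse 8 at 7060, with 24713 in mouse 3, all 5 passing 10 reads in every library. The 5 genes gave r between 0.52 and 0.57 with Anxa2, which turned to between -0.69 and -0.33 without mice 5 and 8, and between 0.71 and 0.89 with Anxa6. The part of blood in these levels was not tested. No member was related to the number of reads or to the share of the 10 most abundant genes past an unadjusted p of 0.05 (exact permutation test, 20 relations, smallest adjusted p = 0.909). With the number of reads, r ran from -0.34 (Anxa4) to 0.46 (Anxa5). Without the 2 libraries farthest from the median number of reads, it ran from -0.67 (Anxa7) to 0.86 (Anxa6), with 0.80 for Anxa2.

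The members did not rise and fall as one block. Over the 8 mice, 34 of the 45 pairs had a positive Pearson r of log2(normalized count + 1) and 11 a negative one, with a median of 0.30. Over all genes with at least 10 reads in every library, the median r with a member lay between -0.012 (Anxa7) and 0.041 (Anxa6). This comparison carries no test. The relations of the 45 pairs and of the 10 members with 8 cell type marker lists were tested by exact permutation of the 40320 pairings of the mice, two-sided, and adjusted by the Benjamini-Hochberg method over all 125. No pair passed an adjusted p of 0.05, 3 had an unadjusted p under 0.05 by Pearson r and 4 by Spearman rho, and the smallest adjusted p was 0.195.

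The 2 closest pairs both held Anxa2. Anxa2 and Anxa5 gave r = 0.86 and rho = 0.83 (exact permutation p = 0.00652, adjusted 0.272; for rho 0.0154, adjusted 0.510), while the 6 mice nearest to the median of Anxa2 gave r = 0.49. Anxa1 and Anxa2 gave r = 0.80 and rho = 0.90 (exact permutation p = 0.00156, adjusted 0.195; for rho 0.00456, adjusted 0.510), while the 6 mice nearest to the median of Anxa1 gave 0.64. Anxa2 and Anxa6 gave r = 0.70 and rho = 0.60 (exact permutation p = 0.0467, adjusted 0.419, and for rho 0.132, adjusted 0.675). Without the 2 farthest mice, 5 and 8, r was -0.0044, but these were the extremes of Anxa2 and leaving them out removed most of its range. Anxa6 and Anxa7 ran against each other, with r = -0.67 and rho = -0.67 (exact permutation p = 0.0704, adjusted 0.419, and for rho 0.0831, adjusted 0.668) and -0.82 without the 2 farthest mice. Anxa1 and Anxa6 gave r = 0.70 and rho = 0.81 (exact permutation p = 0.0624, adjusted 0.419, and for rho 0.0218, adjusted 0.510), and 0.38 without the 2 farthest mice. Anxa11 and S100a11 gave r = -0.29 and rho = -0.76 (exact permutation p = 0.363, adjusted 0.667, and for rho 0.0368, adjusted 0.510).

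For the pairs whose proteins bind each other, no relation between mice passed the test. Anxa2 and S100a10 gave r = 0.66 and rho = 0.50 (exact permutation p = 0.0663, adjusted 0.419; for rho 0.216, adjusted 0.675), and r was -0.20 once mice 5 and 8, the extremes of Anxa2, were left out. Anxa2 and S100a11 gave r = 0.62 but rho = -0.048 (exact permutation p = 0.138, adjusted 0.480; for rho 0.935, adjusted 0.958), and r turned to -0.44 without mouse 8. Anxa1 and S100a11 gave r = 0.38 and rho = -0.17 (exact permutation p = 0.411, adjusted 0.694; for rho 0.703, adjusted 0.837), and r turned to -0.38 without mouse 8. Both S100a11 relations therefore rested on the low values of that 1 animal.

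**Figure D3:**
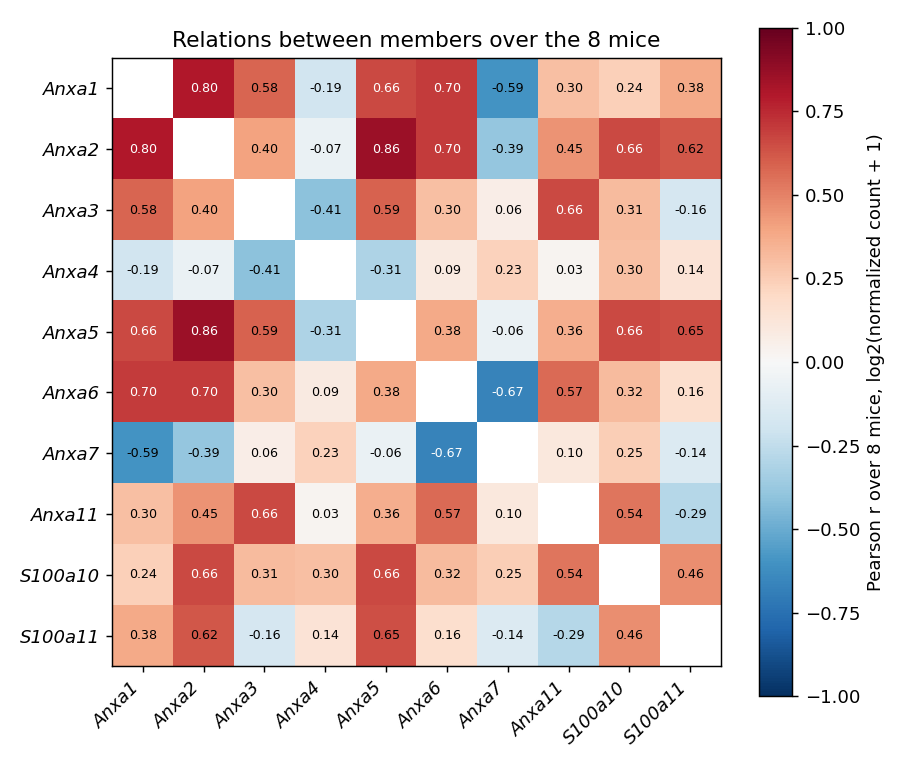
Pearson r of log2(normalized count + 1) over the 8 mice for the 45 pairs of members, from -1 (blue) to 1 (red). The row of Anxa2 holds the 2 highest values, 0.86 with Anxa5 and 0.80 with Anxa1, while Anxa4 and Anxa7 stand between -0.67 and 0.30 with the others.

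Set against all genes, likeness to Anxa2 was common. Of the 15134 other genes with at least 10 reads in every library, 10.2% had r of at least 0.7 with Anxa2, and 2 of the 9 other members did (Anxa1 and Anxa5). The median r of the members with Anxa2 was 0.62, while that of all genes was -0.0037. When mouse 8 was left out, the share of all genes fell to 5.93%, while 4 of the 9 other members reached 0.7. Without mice 5 and 8, 1 of the 9 reached it against 6.61% of all genes, and the median r of the members was -0.0044 against -0.015 for all genes. Those 2 animals were the extremes of Anxa2 and the others lay close together, which by itself can lower r with Anxa2. Whether the likeness held among all mice was therefore not settled. Because many genes share the order of the mice, these values describe the 8 animals and carry no test.

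The genes most like Anxa2 were Golga4 (r = 0.99), a golgin of vesicle traffic, Ank2 (0.99), an ankyrin that anchors membrane proteins to the cytoskeleton, Pcnx (0.99), Vcan (0.99), the matrix proteoglycan versican, and Dennd4a (0.98). Without mice 5 and 8 they kept r between 0.83 for Vcan and 0.97 for Pcnx. The most opposed were AC149090.1 (r = -0.99) and Enho (-0.98), the gene of the secreted peptide adropin. For S100a10 the nearest genes were Spire1, an actin nucleator, Tulp4 and Traf3 (0.96, 0.96 and 0.94), and for S100a11 they were Lman1, a cargo receptor of the secretory pathway, S1pr3, a sphingosine 1-phosphate receptor, and Cfap97 (0.99, 0.98 and 0.96). Near Anxa1 were Gm28635 and Mpp7 (0.98 each), and Anxa5 was closest to Bmpr1a, Med13 and Ubr3 (0.97, 0.97 and 0.96). Anxa6 was closest to Taf5, Map3k5 and Gzf1 (0.97 each), and Anxa7 to Map2k1, Rtl8a and Spag7 (0.98, 0.97 and 0.96). Anxa3 was closest to Wdr26, Dek and Cbfa2t2 (0.96, 0.96 and 0.95), Anxa4 to Psmd5, Cabin1 and Polr2e (0.93, 0.93 and 0.92), and Anxa11 to Dhrs11, Ank3 and Tmem259 (0.97, 0.95 and 0.95). Without mouse 5 the 3 genes nearest Anxa11 gave 0.82, 0.76 and 0.77.

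Among 21 genes of membrane repair and annexin binding, 20 had at least 10 reads in every library and 4 had r of at least 0.7 with Anxa2, where 10.2% of all genes did, with a median r of 0.17. Myof, which codes for the ferlin myoferlin, ran from 97.4 in mouse 8 to 281 in mouse 5 (r = 0.93). Ahnak, which codes for a giant scaffold protein that binds the complex of annexin A2 and S100A10, ran from 11167 in mouse 8 to 26125 in mouse 5 (r = 0.92). Without mice 5 and 8 these became 0.81 and 0.70. Pdcd6ip (Alix, an ESCRT adaptor) and Ehd2 (a caveolar ATPase) gave 0.72 and 0.70, and 0.0077 and 0.51 without those mice. Dysf, which codes for dysferlin, ran from 2292 in mouse 1 to 4290.0 in mouse 5 and gave 0.50, which turned to -0.24 without mice 5 and 8. Trim72, which codes for the repair protein MG53, gave 0.30, and -0.012 without those mice. Pdcd6, which codes for the calcium-binding partner of Alix, gave -0.70, and -0.89 without them. Fer1l5 was at 0 reads in all 8 libraries.

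Of the 4 other annexin genes, none had 10 reads in every library. Anxa8 held 3 to 58 reads, Anxa9 3 to 10, Anxa13 3 to 28 and Anxa10 0 in every library, so the 8 members hold nearly all the annexin RNA. Of the 15 other S100 genes and relatives, 7 had 10 reads in every library and 2 had r of at least 0.7 with Anxa2, where 10.2% of all genes did, with a median r of -0.31. S100a4, which marks fibroblasts and some macrophages, ran from 90.9 in mouse 8 to 262 in mouse 5 (r = 0.95, and 0.79 without mice 5 and 8). The second was S100pbp (0.78), which codes for an S100-binding protein and is not an S100 gene. S100a1, the calcium sensor of striated muscle, was the most abundant of this list at 74.7 ± 12.03 TPM and ran the other way (r = -0.73), though only to -0.29 without mice 5 and 8. S100a6 gave 0.69, which turned to -0.26 without those mice, while S100a16, S100a13 and S100b gave -0.63, -0.35 and -0.31.

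The plasminogen system and the receptors of annexin A1 gave 4 of 8 genes with 10 reads in every library. Plat, the tissue plasminogen activator that the annexin A2 complex binds, gave r = 0.86 with Anxa2 and 0.90 without mice 5 and 8. Plau and Plaur gave -0.22 and 0.61, and 0.047 and -0.57 without those mice. The formyl peptide receptor genes Fpr1, Fpr2 and Fpr3 held at most 3 reads in any library, and Plg, which codes for plasminogen itself, at most 3.

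Levels of the members were set against markers of the cells between the fibres, and no relation passed the adjusted threshold. The summed count of 6 tendon markers ran from 905 in mouse 8 to 6158 in mouse 1, a 6.80-fold range that mouse 8 widened, since the next lowest sum was 1758 in mouse 7, and all 6 were detected in every library. The tendon score gave r = 0.81 and rho = 0.81 with Anxa2 (exact permutation p = 0.00513, adjusted 0.272; for rho 0.0218, adjusted 0.510), 0.60 without mouse 8, 0.52 without the 2 mice with the most extreme scores and 0.90 without mice 5 and 8. Among the tendon genes with 10 reads in every library, r with Anxa2 was 0.94 for Thbs4, 0.77 for Fmod, 0.63 for Tnmd, 0.62 for Comp and 0.027 for Scx. Without mouse 8 Fmod, Tnmd and Comp gave 0.37, 0.25 and 0.092, and Thbs4 gave 0.84. The 8 fibroblast markers summed to between 10294 in mouse 8 and 19186 in mouse 2, and their score gave r = 0.68 and rho = 0.76 with Anxa2 (exact permutation p = 0.0546, adjusted 0.419; for rho 0.0368, adjusted 0.510).

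None of the 80 relations of a member with a marker list passed an adjusted p of 0.05, while 10 had an unadjusted p under 0.05 by Pearson r and 6 by rho. The share of all genes with such relations is not given here, so these counts cannot be read as particular to the members. Anxa1 had 4 of the 10, with tendon (r = 0.75), fibroblast (0.75), macrophage (0.78) and endothelial markers (0.76), and these became 0.31, 0.66, 0.33 and 0.58 without the 2 mice with the most extreme scores, and 0.60, 0.71, 0.76 and 0.83 without mice 5 and 8. Over the 10 relations the exact permutation p ran from 0.00513 to 0.0493 and the adjusted p from 0.272 to 0.419. The 9 macrophage markers summed to between 2516 in mouse 7 and 6279 in mouse 4. Their score gave r = -0.80 with Anxa7, which became 0.079 without the 2 mice with the most extreme scores but stayed at -0.77 without mice 5 and 8 and between -0.87 and -0.61 when any 1 mouse was left out. S100a11 had 3 of the 10, with mural, adipocyte and satellite cell markers (0.66, 0.66 and 0.68), and all 3 turned to between -0.15 and -0.080 without the 2 mice with the most extreme scores. Without mice 5 and 8 they were 0.61, 0.43 and 0.34. The remaining relations were that of Anxa5 with mural markers (0.75, with 0.56 without mouse 8 and 0.45 without mice 5 and 8), that of Anxa7 with macrophage markers and that of Anxa2 with tendon markers. Summed endothelial markers ranged 1.43-fold, mural markers 1.64-fold and adipocyte markers 1.75-fold between mice, and Schwann cell markers, which had no relation with a member past an unadjusted p of 0.05 (exact permutation test), ranged 2.43-fold, with mouse 7 at 3909.9 and the others at 2263 or less. Which cells gave the annexin reads was not tested.

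**Figure D4:**
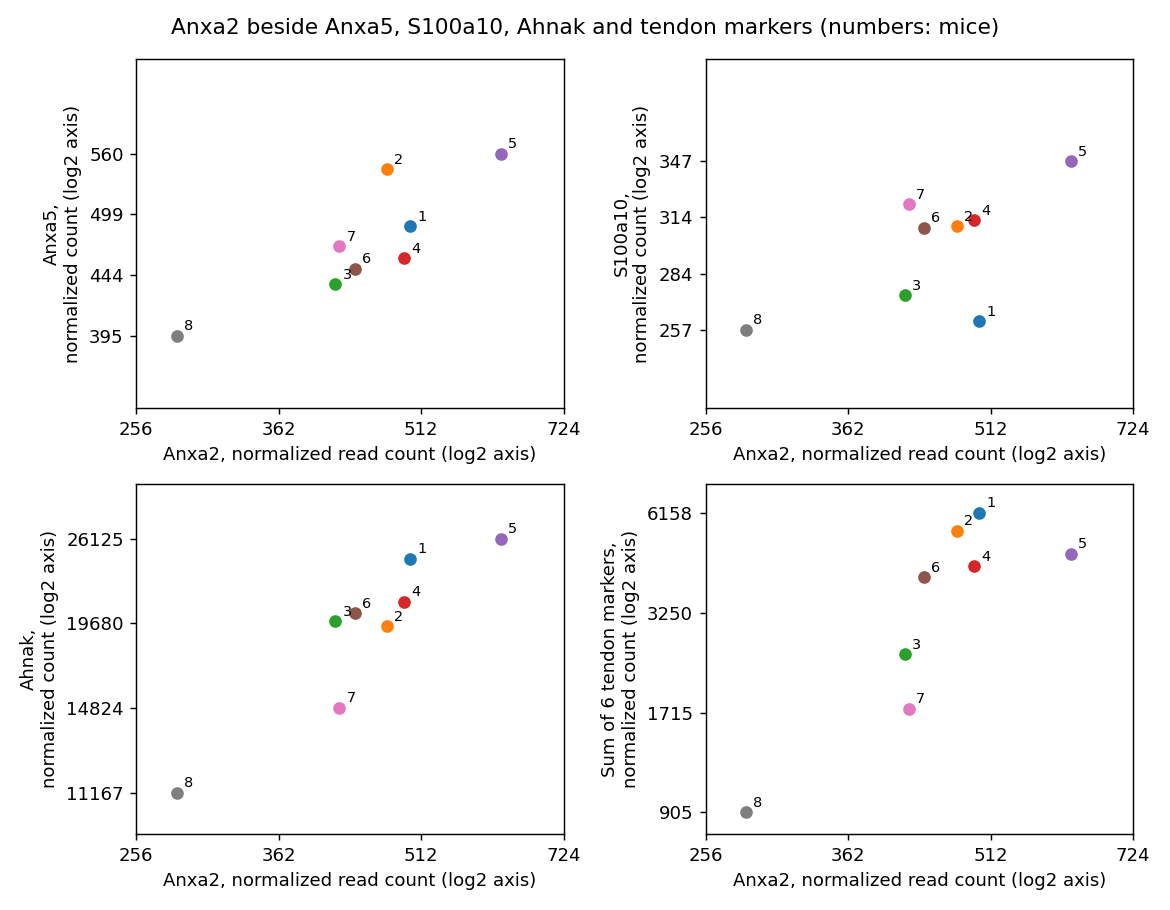
Normalized read counts of Anxa5, S100a10, Ahnak and the sum of 6 tendon markers against Anxa2 (log2 axes on both sides), with each of the 8 mice numbered. Mouse 8 lies at the low end of every panel and mouse 5 is the highest for Anxa5, S100a10 and Ahnak, while the tendon sum is highest in mouse 1 at 6158.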

How the data were processed

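Per the labels and the study's methods, total RNA was extracted from frozen muscle of 8 mice, poly-adenylated RNA was sequenced, and the reads were checked with FastQC, trimmed with fastp, aligned with STAR to GRCm38.p6, counted per gene and scaled with DESeq2. The annotation release and the use of strand are not given in the sources used here, so reads of overlapping genes cannot be told apart. The deposited values are a signal that the authors made by dividing read counts by 1 size factor per library (0.906 to 1.20). Dividing by each library's step, its smallest value above 0, gave whole reads for 100.0% of values (tolerance 0.01). No 2 libraries agreed within sampling noise (chi-square per degree of freedom 16.1 to 119 over 28 pairs).

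GENCODE M21 held 55227 of the 55487 identifiers and gave symbols, positions and exon lengths. TPM was computed from the recovered reads and the joined exon length. Relations used log2(normalized count + 1) and an exact permutation test. A marker score was the mean z-score over the listed genes whose mean reached 5 normalized counts. Neighbours in the order were called within their spread where the mean log2 difference was below its SD. Genes like a member were the 3 protein-coding genes with the highest r among those with 10 reads in every library (for Anxa2 the 5 highest and 2 lowest). Some genes that these rules name are not reported here. Scripts were tested on simulated data. With 1 condition no differential test could be made, so no count model was run on the recovered reads.

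The members, gene lists and motifs were chosen with earlier results of these data known. Alternatives were TMM factors (edgeR 4.0.16) and library totals for scaling, a pseudocount of 5, removal of GC and length trends, Spearman rho, other filters, the longest transcript, medians and leaving out each mouse. Leaving out mice 5 and 8 together and the relations to depth were added after seeing the data. Python 3.11.15, scipy 1.17.1 and R 4.3.3 were used.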

Additional observations from a re-analysis of the deposited data

Results flagged for a closer look

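Anxa11 had 1 animal far from the others. Mouse 5 held 6876 normalized counts, while the other 7 mice held 4302 to 5199.5, and the gap to the nearest mouse was 0.651 of the whole range, above the limit of Dixon's test for 8 values. With TMM factors the gap was 0.671 of the range, and with library totals 0.332, which is under the limit. Without mouse 5 the mean of Anxa11 was 4742 in place of 5009. In all, 22 values were examined in this way and 1 stood out, where chance gives about 1 in 20. The cause was not tested.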

How the results depend on the processing

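The normalized counts of the 10 members moved by less than 1 SD between mice under all 110 settings tried for them (other scaling, medians, and 1 mouse left out). A median, or a mean without 1 of 8 mice, cannot move that far, so for most settings this outcome was fixed in advance. The TPM of the members depended on the transcript length used, with Anxa7 at 74.5 in place of 39.8 and Anxa3 at 9.78 in place of 4.73 for the longest transcript. In the order per length, 45 of 45 pairs kept their order per length when any 1 mouse was left out. The relations changed with the setting. With Spearman rho in place of Pearson r, Anxa1 and S100a11 turned to -0.17 and Anxa2 and S100a11 to -0.048. Without mice 5 and 8, r became -0.20 for Anxa2 and S100a10, -0.26 for Anxa1 and S100a11 and -0.21 for Anxa2 and S100a11. With GC and length trends removed the same relations were 0.84, 0.51 and 0.71, none past an adjusted p of 0.05. Leaving out 1 mouse at a time gave -0.38 (mouse 8) to 0.56 (mouse 7) for Anxa1 and S100a11, -0.44 (mouse 8) to 0.81 (mouse 5) for Anxa2 and S100a11, and 0.44 (mouse 8) to 0.89 (mouse 1) for Anxa2 and S100a10. The counts of member pairs and of marker relations past an adjusted p of 0.05 stayed between 0 and 1, with 1 pair without mouse 3 and 1 marker relation without mouse 7. The share of genes with r of at least 0.7 with Anxa2 was 6.36% over all genes with a count, 6.61% without mice 5 and 8, and 5.93% (mouse 8) to 12.8% (mouse 5) when 1 mouse was left out. The number of members like Anxa2 was 1 without mice 5 and 8 and 2 to 4 when 1 mouse was left out, with 4 without mouse 1, 7 or 8. The cause was not tested. No paired analysis was possible because all mice belong to 1 group. With 8 mice of 1 condition, relations of moderate size cannot be told from none after adjustment.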

Other observations

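Anxa8, an annexin with few reads here, varied more than any member. It held 3 reads in mouse 8 and 58 in mouse 4, that is 3.28 and 63.8 normalized counts. Ahnak2, a relative of Ahnak, ran from 409 in mouse 1 to 2174 in mouse 4 and gave r = 0.077 with Anxa2, where Ahnak gave 0.92. These genes were singled out after their values were seen.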
